A study of Mus musculus with 4 samples.

Results

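Carcinoma cells of the MDA-MB-231 line made up 221 of the 37806 cell barcodes that passed the quality limits in a sort for human CD45+ leukocytes from orthotopic tumors. A barcode was counted as a carcinoma cell when it held at least 5 UMIs (unique molecular identifiers, each marking 1 captured RNA molecule) of the keratin genes KRT8, KRT18 and KRT19 together and at least 2 of the membrane and membrane-associated protein genes TM4SF1, CAV1, S100A16 and EGFR together. It also had at most 1 UMI of the T-cell genes CD3D, CD3G and TRAC and at most 4 of the macrophage genes C1QA, C1QB and C1QC. Kept barcodes had more than 600 and up to 6000 detected genes and under 12.5% of their UMIs from mitochondrial genes. The members were thus chosen by the measured counts of these genes, so the levels of these genes, and of every other gene against the remaining cells, are given as a description with no test.

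MDA-MB-231 is a human triple-negative breast carcinoma line, which lacks the estrogen receptor (ESR1), the progesterone receptor (PGR) and amplified ERBB2. It is of the mesenchymal type known as claudin-low, with high vimentin and no E-cadherin, and its RAS-MAPK pathway is activated by mutation. Maraviroc is a small-molecule drug that was given by mouth.

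All mice were MISTRG mice, an immunodeficient strain that carries human genes for growth factors of myeloid cells. They had been irradiated as newborns and engrafted with human fetal liver CD34+ cells, and later received MDA-MB-231 cells in the mammary fat pad. Of 14 mice, 7 were left untreated and 7 drank water that held 300 mg of maraviroc per liter. The drug was given over 10 days, starting on day 21 after tumor injection, and tumors were collected on day 31. Each mouse was marked with a hashtag, an antibody carrying a DNA tag, and the mice were pooled in 2 capture reactions, each of which held both treatments. The tumor line is a model of 1 patient's carcinoma grown under a reconstituted immune system, and the carcinoma cells seen here are those that came through a sort meant to leave them out, so their number is no measure of tumor size.

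Reaction 1 held 29120 barcodes with 133089612 UMIs, of which 27645 barcodes were kept and 149 were carcinoma cells. Reaction 2 held 13582 barcodes with 175447534 UMIs, of which 10161 were kept and 72 were carcinoma cells. In reaction 1, 0.539% of kept barcodes were carcinoma cells, with a 95% exact binomial interval from 0.456 to 0.632%. The share in reaction 2 was 0.709%, with an interval from 0.555 to 0.892%. Counting only cells with at most 2 UMIs of 5 leukocyte genes gave 0.289% (0.230 to 0.360%) and 0.630% (0.485 to 0.804%), and lifting the upper limit on genes gave 0.608% (0.520 to 0.706%) and 1.301% (1.10 to 1.525%). Requiring at least 10 keratin UMIs gave 0.242% (0.188 to 0.308%) and 0.561% (0.425 to 0.726%). The intervals of the reactions did not overlap under these changed limits. They did overlap under the main limits and with more than 1000 detected genes required (0.543 to 0.756% and 0.535 to 0.869%). Overlap was also seen with the mitochondrial limit at 10% or 20% and with doublets called by scrublet removed. These intervals, and the Poisson intervals below, cover counting error only. The median carcinoma cell had 4647 UMIs and 2119 detected genes in reaction 1, and 15550 UMIs and 4386 genes in reaction 2. The other kept barcodes had medians of 2741 and 10720 UMIs, so the carcinoma cells were the deeper in each reaction. The rule's minimum of keratin and membrane gene UMIs itself favors deeper barcodes. The reactions shared 136 barcode sequences, and no barcode sequence of a carcinoma cell was among them.

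Some carcinoma cells, most of them in reaction 1, carried leukocyte RNA. More than 2 UMIs of the leukocyte genes PTPRC (CD45), CD53, LAPTM5, TYROBP and CORO1A were found in 69 of 149 carcinoma cells of reaction 1 and in 8 of 72 of reaction 2. In reaction 1 the leading hashtag held a median of 46.5% of the hashtag UMIs of these barcodes, against 66.0% in the 80 carcinoma cells with at most 2 leukocyte UMIs. The leukocyte-rich carcinoma cells of reaction 1 had 1187 CPM (the gene's UMIs per 1e+06 UMIs, summed over cells) of the 9 natural killer genes and 3351 CPM of the 8 monocyte genes, against 145 and 571 CPM in the others. Their MHC class II genes summed to 5652 against 951 CPM. The 6 carcinoma markers KRT19, KRT18, TM4SF1, CAV1, EGFR and CST1 together stood at 5129 CPM in the leukocyte-rich and 6819 CPM in the leukocyte-poor cells of reaction 1. In reaction 2 the 8 leukocyte-rich cells had 7278 CPM of these markers and 14.96 CPM of the natural killer genes, against 5092 and 25.25 CPM in the 64 others. Their monocyte genes summed to 2491 against 57.4 CPM and their MHC class II genes to 1212 against 694 CPM. That monocyte sum rested mostly on 1 leukocyte-rich cell with 11356 UMIs. Of the UMIs in all carcinoma cells of reaction 2, it held 145 of 171 of S100A9 and 66 of 72 of S100A8. It also held 37 of 43 UMIs of LYZ and 40 of 48 of VCAN. The part of doublets and of free RNA in this was not tested, and levels are given below also for the 80 and 64 carcinoma cells with at most 2 leukocyte UMIs, called leukocyte-poor.

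The upper limit on detected genes left out many barcodes that met the marker rule. A further 98 barcodes, 21 in reaction 1 and 77 in reaction 2, met the marker rule with more than 6000 detected genes. They had a median of 39275 and 34983 UMIs, and their median count of the 5 leukocyte genes was 2 and 1. A hashtag held at least 60% of the hashtag UMIs in 20 of 21 and 66 of 77 of them, against 65 of 149 and 40 of 72 carcinoma cells under the limit. More than 2 leukocyte UMIs were found in 7 of the 21 and 21 of the 77, against 69 of 149 and 8 of 72 under the limit. More than 10 were found in 1 and 9, against 10 and 2. In reaction 2 the doublet caller scrublet marked 9 of the 77, against 4 of the 72. Another 19 barcodes met the rule with too high a mitochondrial share, and 1 with too few genes. Just inside the keratin limit, at 5 to 6 UMIs and with the other limits met, lay 52 and 9 barcodes, with CST1 in 84.6% and 55.6% of them. Just outside, at 3 to 4 keratin UMIs, lay 106 and 12 barcodes, with CST1 in 76.4% and 50%. Such barcodes are among the other kept cells that levels are set against below.

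**Figure D1:**
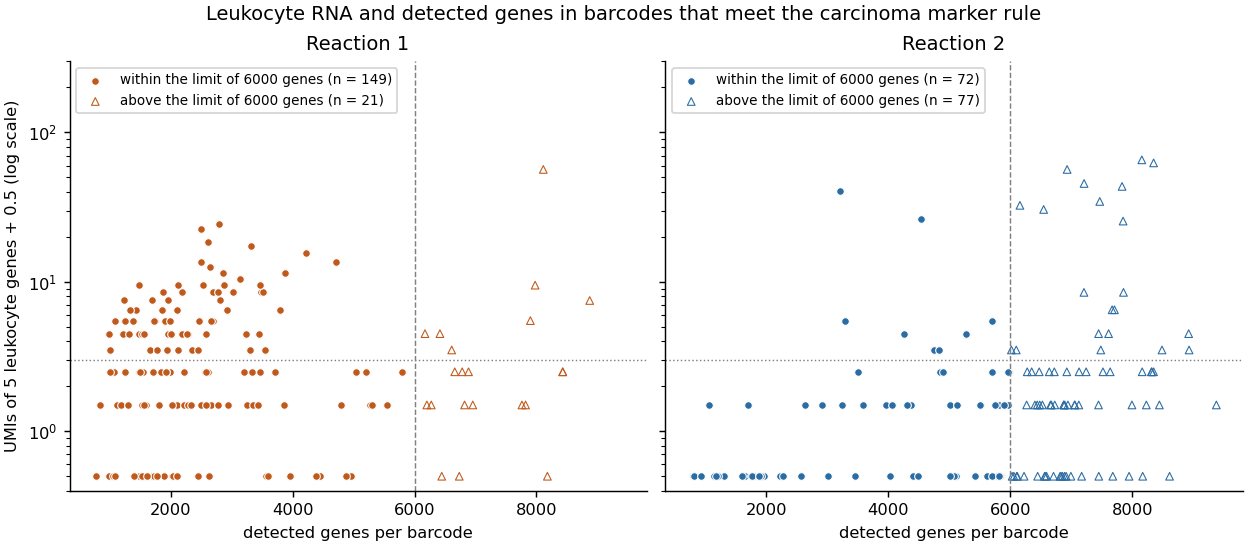
Detected genes (x axis) against the UMIs of 5 leukocyte genes plus 0.5 (y axis, log scale) for each barcode that met the marker rule, by reaction. The dashed line marks the limit of 6000 genes, beyond which lie 21 and 77 barcodes, and the dotted line marks 3 leukocyte UMIs, reached by 69 and 8 of the carcinoma cells under the limit.

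The markers given for these cells were at high levels in them. CST1, which encodes the secreted protease inhibitor cystatin SN, had 3023 CPM in the carcinoma cells of reaction 1 (95% exact Poisson interval, 2909 to 3139) and 2440 CPM in reaction 2 (2344 to 2538). The other kept barcodes had 69.0 and 5.14 CPM. KRT19, a keratin of simple epithelia, had 1698 and 1311 CPM against 26.5 and 3.90 CPM. KRT18 had 391 and 471 CPM and its partner KRT8 had 329 and 278 CPM. The tetraspanin-like TM4SF1 had 390 and 443 CPM, CAV1, the main protein of caveolae, had 506 and 517 CPM, and the calcium-binding S100A16 had 610 and 559 CPM. EGFR, the receptor for epidermal growth factor, had 169 and 201 CPM. The paralogs CST1, CST2 and CST4 are nearly identical in sequence, so the split of reads among them is uncertain.

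With every cell thinned to 2000 UMIs, CST1 was found in 81.8% and 62.9% of 137 and 70 carcinoma cells, after 12 and 2 shallower ones were left out. The same depth gave CST1 in 1.11% and 0.394% of T cells and in 2.79% and 0.883% of C1Q macrophages, which should lack the gene. Without thinning, CST1 was found in 87.2% and 77.8% of carcinoma cells (median 4647 and 15550 UMIs) and in 2.20% and 1.91% of T cells (median 4114 and 7456 UMIs). In other kept cells the ratio of KRT19 to CST1 CPM was 0.383 and 0.759, against 0.562 and 0.537 in carcinoma cells.

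Receptors that define breast cancer subtypes were at or near the floor. PGR had no UMI in either reaction, where 3 UMIs would have given 3.38 and 2.98 CPM. ESR1 had 10.2 and 2.98 CPM in carcinoma cells, below the 37.4 and 39.7 CPM of the other kept cells. ERBB2 had 9.02 and 13.9 CPM. CDH1, which encodes E-cadherin, also had no UMI in 221 carcinoma cells, and the keratins KRT5 and KRT14 of basal epithelium had none in the leukocyte-poor cells. EPCAM, a surface protein of most carcinomas, stood at 13.5 and 19.9 CPM. In all, 13 of 22 epithelial genes were higher and 6 lower than in the other kept cells in both reactions, with KRT7 at 166 and 231 CPM and the desmosome gene DSP at 93.6 and 171 CPM among the higher. KRT8, KRT18 and KRT19, which the rule used, are also among these 13. Of all 19042 genes with a UMI in carcinoma cells, 7228 were higher and 6331 lower in both reactions. The counts of higher and lower genes in the lists below stand beside these.

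The mesenchymal genes summed to more CPM in carcinoma cells than the epithelial genes, with most of that sum in VIM. In leukocyte-poor cells VIM alone had 10760 and 8692 CPM. The epithelial genes summed there to 3325 and 2763 CPM, of which KRT8, KRT18 and KRT19 of the rule held 2676 and 2036 CPM. VIM (vimentin, an intermediate filament) had 9149 and 9424 CPM in carcinoma cells and 2708 and 2423 CPM in the other kept cells, most of which are leukocytes and also use it. FN1, the matrix glycoprotein fibronectin, had 1192 and 1247 CPM against 69.1 and 48.7 CPM. The ecto-enzyme NT5E (CD73), which makes adenosine, had 433 and 432 CPM against 13.7 and 4.44 CPM. CD44, a hyaluronan receptor that leukocytes share, was lower in carcinoma cells, at 611 and 775 CPM against 1159 and 1471 CPM. CDH2 (N-cadherin) had 1 UMI in all. The 23 mesenchymal genes summed to 14652 and 12645 CPM in leukocyte-poor carcinoma cells and to 5663 and 6028 CPM in the other kept cells, with 13 higher and 6 lower in both reactions. Among the other kept cells they summed to 10058 and 9573 CPM in 102 and 225 CD1C dendritic cells, which had at least 3 UMIs of CD1C, FCER1A and CLEC10A together and at most 1 each of the keratin, the C1Q and the T-cell genes of the rule. They summed to 3627 and 3847 CPM in T cells and to 5810 and 6386 CPM in macrophages.

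Among genes with at least 50 CPM in carcinoma cells of each reaction, the 15 with the highest ratio to the other kept cells included secreted and matrix-linked products. Ranked by the ratio to the other kept cells in the reaction where that ratio was lower, the first was PAEP (glycodelin), with 136 and 122 CPM against 1.56 and 0.151 CPM and a lower ratio of 87.8. Reaction 1 gave the lower ratio for each of the 15, and in reaction 2 that of PAEP was 812.5. The other kept cells of reaction 1 had 69.0 CPM of CST1, against 5.97 CPM in its T cells and 16.5 CPM in its macrophages. PAEP was followed by the ligand BMP4 with a lower ratio of 65.0, CST2 with 64.9, and ANKRD1, a target of YAP and TAZ, with 64.2. KRT19 itself came next with 64.2. ADIRF, SFN (14-3-3 sigma), CCN2, the antisense RNA SLCO4A1-AS1 and AGR2 had lower ratios of 63.6, 63.3, 59.8, 58.8 and 58.0. CCN1, KRT18, KRT8, the non-coding RNA MANCR and CAV2 had 56.0, 55.7, 52.4, 51.4 and 49.8. The matricellular genes CCN1 and CCN2, which are also YAP targets, stood at 221 and 298 CPM and at 152 and 114 CPM. The counting of SLCO4A1-AS1 apart from a gene on the other strand rests on the strand setting of the counting, which is not given in the sources used here.

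The most abundant nuclear protein-coding genes were S100A6 (a calcium-binding protein), VIM, the actin-binding thymosins TMSB10 and TMSB4X, RPL10, EEF1A1, RPS18, FTL, RPLP1 and PTMA. S100A6 had 12478 and 14002 CPM, against 2185 and 1990 CPM in the other kept cells. TMSB4X and the ferritin light chain FTL were the members of this set that were lower in carcinoma cells in both reactions. FTL had 4845 and 2448 CPM against 12219 and 8969 CPM. UMIs mark transcript ends, so they are not scaled by gene length.

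**Figure D2:**
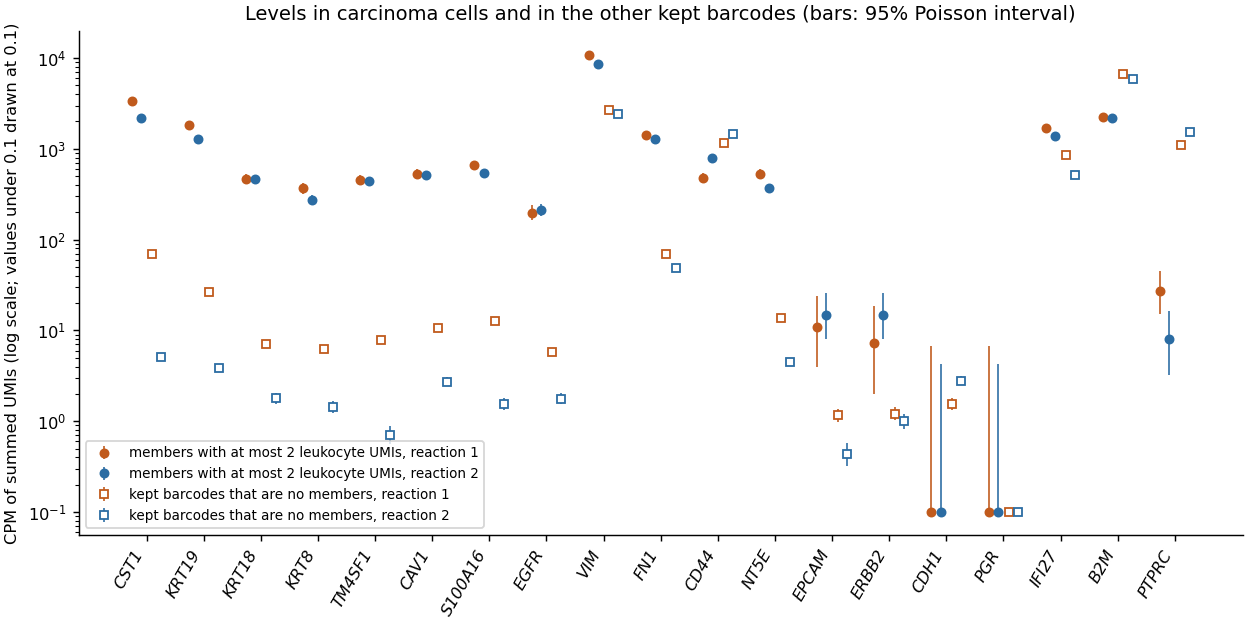
Summed CPM (y axis, log scale) of marker and lineage genes in the leukocyte-poor carcinoma cells and in the other kept barcodes of each reaction, with 95% exact Poisson intervals as bars and levels under 0.1 drawn at 0.1. CST1, KRT19 and VIM stand above 1000 CPM in these carcinoma cells of both reactions, and CDH1 and PGR have no UMI there.

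Genes of the membrane skeleton, matrix and adhesion were higher in carcinoma cells for most members of their lists. Of 17 caveola, annexin and S100 genes, 15 were higher and 1 was lower in both reactions, with CAV1 and S100A16 of the rule among the higher. The list summed to 23680 and 24281 CPM in leukocyte-poor carcinoma cells, against 17429 and 15249 CPM in CD1C dendritic cells. Of 28 matrix and adhesion genes, 23 were higher and 4 lower. The metalloproteinase inhibitor TIMP1 had 2417 and 1929 CPM against 618 and 539 CPM, and the collagen-binding integrin chain ITGA2 had 417 and 376 CPM against 13.9 and 7.09 CPM. The plasminogen activator PLAU had 133 and 148 CPM against 112 and 102 CPM. Among the metalloproteinases, MMP14 had 67.7 and 69.6 CPM against 50.3 and 53.9 CPM, and MMP1 had 19.2 and 4.97 CPM against 4.26 and 0.686 CPM. Of 11 cystatin and secreted inhibitor genes, 8 were higher and 2 lower.

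Genes of low-oxygen response and glycolysis were higher for 25 of 30 and lower for 3 of 30. NDRG1, which rises in hypoxia, had 1127 and 606 CPM in carcinoma cells and 161 and 156 CPM in the other kept cells. The glucose transporter SLC2A1 had 174 and 160 CPM against 26.2 and 19.8 CPM. The angiogenic factor VEGFA had 207 and 185 CPM, and the lymphatic growth factor VEGFC had 329 and 355 CPM against 8.12 and 3.15 CPM. The vasodilator peptide gene ADM had 112 and 66.7 CPM against 40.7 and 30.2 CPM. CA9, a carbonic anhydrase induced by hypoxia in many carcinomas, was low at 3.38 and 8.95 CPM. Targets of the RAS-MAPK pathway were higher for 14 of 17 and lower for 2. PHLDA1 had 749 and 880 CPM against 68.4 and 58.3 CPM. The phosphatase DUSP6, which limits ERK, had 410 and 424 CPM, and the AP-1 member FOSL1 had 163 and 193 CPM against 17.9 and 19.7 CPM.

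Interferon-stimulated genes were split. Of 40 genes, 9 were higher and 24 lower in carcinoma cells, and the list summed to 6935 and 7910 CPM in leukocyte-poor carcinoma cells and to 7934 and 7427 CPM in the other kept cells. IFI27 had 1523 and 1521 CPM against 853 and 521 CPM. The ubiquitin-like ISG15 was also higher, at 1145 and 1567 CPM against 1049 and 925 CPM. IFI6 had 226 and 188 CPM against 426 and 343 CPM. IFI27 was found at 2000 UMIs in 86.9% and 85.7% of carcinoma cells, 60.9% and 42.6% of macrophages and 28.2% and 19.7% of T cells. MHC class I genes were lower for 12 of 15 and higher for 1. B2M, the shared light chain, had 2856 and 2225 CPM against 6643 and 5931 CPM. All 10 MHC class II genes were lower. Reads of HLA genes depend on how well each allele matches the reference.

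Most chemokine and growth factor genes were lower in carcinoma cells than in the other kept cells, with 7 of 35 higher and 23 lower. The EGFR ligand AREG led the list with 271 and 828 CPM. CXCL8, a neutrophil chemokine, had 246 and 160 CPM against 989 and 826 CPM in the other kept cells. The myeloid growth factor CSF2 had 10.1 and 19.9 CPM, LIF 6.76 and 12.9 CPM and IL6 12.4 and 9.95 CPM. The macrophage growth factor CSF1 had 71.0 and 40.8 CPM against 80.4 and 67.4 CPM. CXCL1, CCL2 and IL1B were lower in carcinoma cells, with 37.2 and 30.8 CPM, 112 and 11.9 CPM and 105 and 13.9 CPM. CCL20 had 4.51 CPM in reaction 1 and no UMI in reaction 2, and CXCL10 had 36.1 and 110 CPM against 286 and 316 CPM. In leukocyte-poor cells CCL2 had 50.9 and 10.3 CPM, and CXCL10 had 12.7 and 127 CPM. The chemokine CCL5 had 158 and 8.95 CPM, and 41.8 and 8.03 CPM in leukocyte-poor cells, against 751 and 428 CPM in the other kept cells.

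Metabolic and stress genes differed by gene. Of 40 lipid genes, 17 were higher and 19 lower. The counts in this paragraph stand beside those of all 19042 genes, of which 7228 were higher and 6331 lower. The fatty acid transporter CD36 had 15.8 and 3.98 CPM against 97.6 and 130 CPM. The lipid droplet gene PLIN2 had 178 and 112 CPM against 383 and 314 CPM, and the fatty acid binding protein gene FABP5 had 139 and 172 CPM against 194 and 132 CPM. Of 31 oxidative stress and iron genes, 15 were higher and 13 lower. The metallothionein MT2A had 2428 and 2149 CPM against 647 and 518 CPM, and GPX4, which removes lipid peroxides, had 516 and 509 CPM against 247 and 193 CPM. The heme-degrading HMOX1 had 65.4 and 32.8 CPM against 474 and 427 CPM, and the transferrin receptor TFRC had 66.5 and 33.8 CPM against 327 and 399 CPM. SLC7A11, the cystine transporter, had 29.3 and 34.8 CPM against 17.9 and 28.0 CPM. GPNMB and TREM2, genes of lipid-laden macrophages, had 18.04 and 11.9 CPM and 5.64 and 0 CPM. The unfolded protein list had 13 of 24 genes higher and 10 lower, and the heat shock list had 8 of 16 higher and 3 lower. The inducible chaperone HSPA1A had 223 and 184 CPM against 374 and 346 CPM. NF-kB targets were lower for 19 of 20, with IER3 as the member that was higher. Of 30 immune ligands, 13 were higher and 15 lower. The complement inhibitor CD59 had 681 and 609 CPM, CD47 had 168 and 195 CPM, and the checkpoint ligand CD274 (PD-L1) had 6.76 and 18.9 CPM.

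Most proliferation genes were lower than in the other kept cells within the limit of 6000 genes. Of 25 replication genes, 21 were lower and none was higher, and of 26 mitosis genes, 15 were lower and 5 higher. The mitosis list summed to 1098 and 770 CPM in carcinoma cells against 1344 and 930 CPM in the other kept cells. It summed to 896 and 504 CPM in leukocyte-poor cells and to 1428 and 2506 CPM in leukocyte-rich ones. In the barcodes beyond 6000 genes it summed to 708 CPM in reaction 1 and 1356 CPM in reaction 2, so the direction turned in reaction 2, while the replication list there stayed below the other kept cells, at 406 and 652 CPM against 963 and 750 CPM. TOP2A had 133 and 26.9 CPM against 144 and 100 CPM. PCNA, the sliding clamp of replication, had 53.0 and 22.9 CPM against 69.2 and 47.4 CPM. MKI67 was found at 2000 UMIs in 8.76% and 1.43% of carcinoma cells, against 23.5% and 14.3% of T cells and 20.8% and 12.3% of macrophages. TOP2A was found at that depth in 19.7% and 5.71% of carcinoma cells. T cells had it in 20.1% and 11.2% and macrophages in 19.8% and 9.96%. The depth of 2000 UMIs puts a level of 1 UMI at the edge of detection for these genes.

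Markers of other cell types were low but not all absent. The 13 leukocyte genes were all lower in carcinoma cells, and summed to 1875 and 539 CPM, or 805 and 394 CPM in leukocyte-poor cells, against 8090 and 7686 CPM in the other kept cells. The most abundant of them was CYBA, which is not restricted to leukocytes, and none of the 13 was at 0. PTPRC had 176 and 33.8 CPM over all carcinoma cells against 1107 and 1534 CPM, and 27.3 and 8.03 CPM in the leukocyte-poor cells, which were picked partly on PTPRC itself. All 9 T-cell, 9 natural killer, 9 macrophage, 8 monocyte and 6 mast-cell genes were lower, which the rule itself set in part for CD3D, CD3G, TRAC and the C1Q genes, and all 6 mast-cell genes were at 0 in leukocyte-poor cells. Fibroblast genes were higher for 2 of 7, summing to 178 and 20.7 CPM in leukocyte-poor cells, with DCN and LUM at 0. The endothelial genes had 1 of 5 higher and 4 lower.

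**Figure D3:**
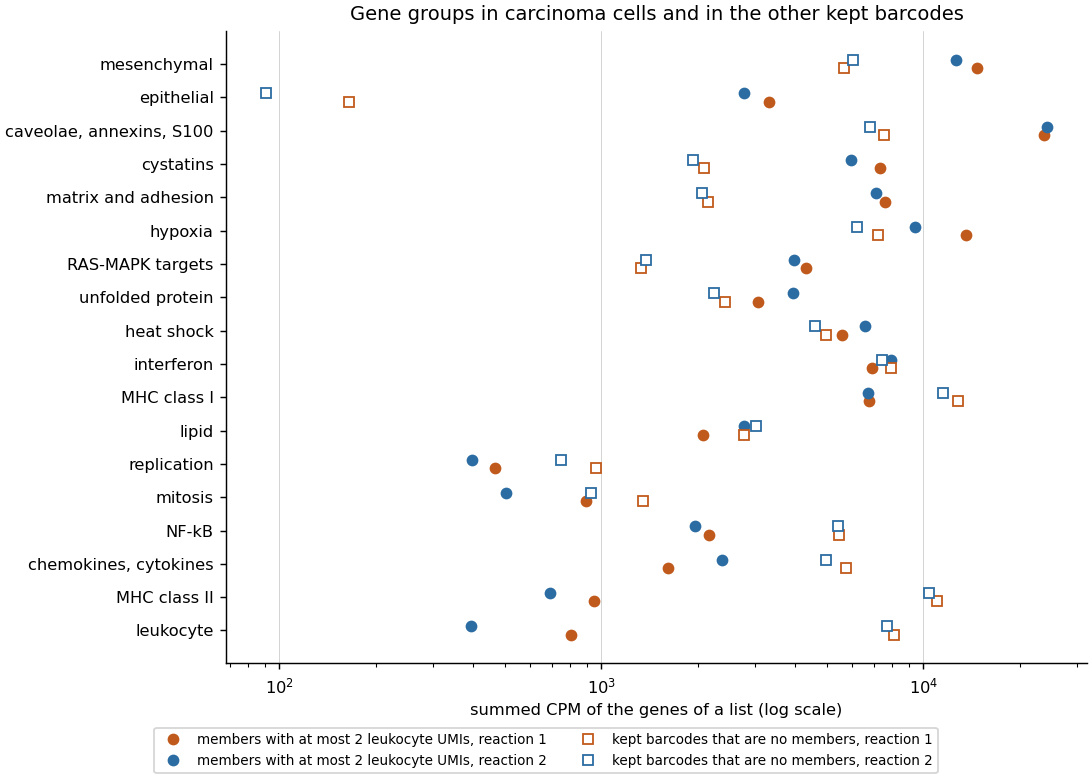
Summed CPM of the genes of each list (x axis, log scale) in leukocyte-poor carcinoma cells and in the other kept barcodes of both reactions. The hypoxia list stands at 13600 and 9424 CPM in carcinoma cells and 7212 and 6236 CPM elsewhere, while MHC class II stands at 951 and 694 CPM against 11058 and 10431 CPM.

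Single cells carried much of the total of several genes, counted here over leukocyte-poor cells unless stated. In reaction 2, 1 leukocyte-poor carcinoma cell with 18476 UMIs held 112 of the 112 UMIs of CXCL9, 105 of 111 of CXCL10 and 50 of 55 of CXCL11, chemokines induced by interferon gamma. The same cell held 24 UMIs of IDO1, 42 of IRF1, 27 of GBP1 and 39 of HLA-DRB1, together with 107 of CST1, 323 of VIM and none of PTPRC. Its leading hashtag held 95.2% of its hashtag UMIs, and the scrublet caller marked it as a doublet. Another cell of reaction 2, with 22497 UMIs, held 290 of 504 UMIs of the linker histone HIST1H1C, 120 of HIST1H2AC, 226 of ISG15 and 120 of the growth-arrest gene GADD45A, and none of CST1. In reaction 1, 1 cell held 27 of 43 UMIs of COL3A1, with 20 of COL1A2, 16 of FBN1 and 10 of SPARC, beside 50 of KRT19 and 26 of CST1. HTODemux, the study's hashtag caller, called that cell a doublet. Over all carcinoma cells, PAEP was found in 9 of 149 in reaction 1 and 9 of 72 in reaction 2, and the 3 highest held 87.6% and 82.9% of its UMIs. AREG had 275 of its 823 UMIs in 1 leukocyte-poor cell of reaction 2.

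CST1 itself varied widely between cells. Among leukocyte-poor cells thinned to 2000 UMIs, the median cell had 3 CST1 UMIs in reaction 1 and 1 in reaction 2, the highest had 25 and 35, and 80.6% and 51.6% had any. KRT19 was found in 91.7% and 87.1% and VIM in every one of these cells. FN1 was found in 70.8% and 48.4%, NDRG1 in 70.8% and 46.8%, and SLC2A1 in 29.2% and 17.7%. The reactions held different mice, and differences between them are given as values without a test. Over all carcinoma cells DDIT3 and HSPA5 stood higher in reaction 2, with DDIT3 (a stress-induced transcription factor) at 35.0 and 85.6 CPM and the chaperone HSPA5 at 338 and 610 CPM. In the barcodes beyond 6000 genes DDIT3 had 25.9 and 47.4 CPM, while HSPA5 had 448 and 439 CPM. SPP1, a macrophage product, was higher in reaction 1, at 624 against 107 CPM in leukocyte-poor cells. It had 116 and 76.2 CPM in the barcodes beyond 6000 genes and 7913 and 4687 CPM in the other kept cells, and the part of free RNA in this was not tested.

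The share of carcinoma cells did not separate maraviroc-treated from untreated tumors. A mouse was assigned where the leading hashtag held at least 60% of the hashtag UMIs, which placed 65 carcinoma cells of reaction 1 (43.6%) and 40 of reaction 2 (55.6%). Of the other kept barcodes it placed 26.5% and 88.5%, so shares per mouse are not on the same footing in the 2 reactions and are compared between treatments only. Treatments follow the naming of the hashtags among the deposited features, and mice are numbered here in the order of their hashtags within treatment and reaction. Untreated mice 1 to 4 of reaction 1 had 0.236, 0.313, 0.951 and 1.51% carcinoma cells among their kept barcodes, and untreated mice 1 to 3 of reaction 2 had 0.239, 0.350 and 0.968%. Maraviroc mice 1 to 3 of reaction 1 had 0.673, 1.15 and 1.09%, and maraviroc mice 1 to 4 of reaction 2 had 0.0693, 0.513, 0.429 and 0.789%. The groups overlapped throughout. The mean was 0.652 ± 0.495% in untreated and 0.673 ± 0.379% in maraviroc mice (SD, n = 7 each), a difference of 0.0214 percentage points, and the two-sided exact permutation test over mice gave p = 0.925 from 3432 regroupings. These shares rested on 1 to 18 carcinoma cells per mouse.

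In untreated mouse 4 of reaction 1, which had the highest share, 15 of 18 carcinoma cells were leukocyte-rich. With leukocyte-poor cells only, that mouse had 0.251%, and the means were 0.457% in untreated and 0.617% in maraviroc mice (exact permutation p = 0.397, n = 7 each). Without the upper limit on genes the means were 0.979% and 1.21% (exact permutation p = 0.367, n = 7 each). Within reactions, the difference was 0.219 percentage points in reaction 1 (exact permutation p = 0.571) and −0.0687 points in reaction 2 (exact permutation p = 0.800), and the difference between reactions gave an exact permutation p of 0.511.

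**Figure D4:**
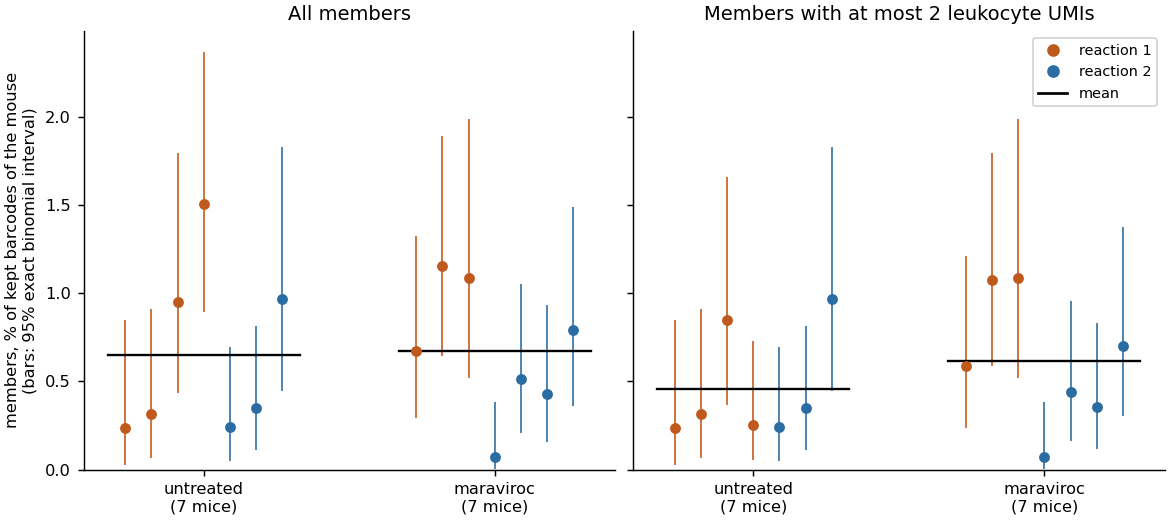
Carcinoma cells in percent of the kept barcodes of each mouse (y axis), by treatment, with 7 untreated and 7 maraviroc mice and 95% exact binomial intervals as bars and the mean as a line, for all carcinoma cells and for leukocyte-poor ones. With all carcinoma cells the untreated mice run from 0.236 to 1.51% and the maraviroc mice from 0.0693 to 1.15%.

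Gene levels by treatment were compared on UMIs summed over the carcinoma cells of each mouse with edgeR's quasi-likelihood test and Benjamini-Hochberg adjustment. Only 3 mice, all of reaction 1, had 10 or more assigned carcinoma cells, so a second fit used the 10 mice with at least 5, which were 4 untreated and 6 maraviroc mice, with the reaction as a block. In that fit no gene of 2638 passed an adjusted p of 0.05, so 0% were called. At an unadjusted p under 0.05 there were 66 genes higher in maraviroc mice (2.5%) and 45 lower (1.71%), together 4.21%, and DESeq2 called 2 genes, LOX and FN1. The test for a treatment difference that differed between reactions called none of 2638 genes, with 130 at an unadjusted p under 0.05 (4.93%, of which 2.88% positive and 2.05% negative) and none called by DESeq2.

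The 5 genes with the smallest unadjusted p among those higher in maraviroc mice were LOX, FN1, SLC2A1, DSP and GPC6, and all missed the adjustment. LOX encodes lysyl oxidase, which cross-links collagen and is a hypoxia target. It had 14.6 and 14.8 CPM in untreated mice 3 and 4 of reaction 1 and 49.8 and 17.0 CPM in untreated mice 2 and 3 of reaction 2, from 1 to 5 UMIs per mouse. Maraviroc mice 1 to 3 of reaction 1 had 372, 151 and 182 CPM, and maraviroc mice 2 to 4 of reaction 2 had 53.1, 149 and 155 CPM. With mice assigned by the leading hashtag, every maraviroc mouse lay above every untreated mouse, a separation seen in 0.265% of the 2638 genes. The log2 change was 2.75 ± 0.54 (SE, edgeR, adjusted p = 0.173).

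FN1 had 409 and 930 CPM in the untreated mice of reaction 1 and 618 and 544 CPM in those of reaction 2. Maraviroc mice had 1628, 1630 and 2562 CPM in reaction 1 and 1774, 736 and 2020 CPM in reaction 2. Maraviroc mouse 3 of reaction 2 lay below untreated mouse 4 of reaction 1, and the log2 change was 1.47 ± 0.31 (edgeR, adjusted p = 0.190). SLC2A1 had 29.2, 88.6, 79.7 and 59.5 CPM in the untreated mice and 425, 132, 248, 159, 184 and 360 CPM in the maraviroc mice, in the same order. These groups did not overlap either, with a log2 change of 1.90 ± 0.43 (edgeR, adjusted p = 0.267). DSP had a log2 change of 1.47 ± 0.39 and the proteoglycan GPC6 one of 2.31 ± 0.63.

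These differences were smaller once the barcodes beyond 6000 genes were added. Without the limit of 6000 genes, in 6 untreated and 7 maraviroc mice, the log2 changes of LOX, FN1 and SLC2A1 were 0.72, 0.58 and 0.52, with unadjusted edgeR p of 0.0968, 0.0528 and 0.115. Those of DSP and GPC6 were 0.22 and 0.25, with unadjusted edgeR p of 0.371 and 0.486. With leukocyte-poor cells only the changes of LOX, FN1 and SLC2A1 were 2.47, 1.75 and 2.03. With the cells that HTODemux called singlets they were 1.31, 0.92 and 0.59, in 6 untreated and 5 maraviroc mice. That caller placed carcinoma cells differently. Maraviroc mouse 1 of reaction 1 had 1 carcinoma cell, against 8 by the leading hashtag. In reaction 2, untreated mouse 3 had 3 against 9 and maraviroc mouse 4 had 15 against 9. The count stayed at 5 in untreated mouse 2 of reaction 2 and at 15 in maraviroc mouse 2 of reaction 1. Whether the groups stay apart mouse by mouse under that caller was not tested. Over all 23 alternatives to the fit with at least 5 carcinoma cells per mouse, LOX ran from 0.35 to 6.58. FN1 ran from 0.23 to 1.75 and SLC2A1 from 0.26 to 6.88.

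The 5 genes with the smallest unadjusted p among those lower in maraviroc mice were RANBP1, DUT, LSM3, SLC25A5 and STRAP, which act in nuclear transport, nucleotide metabolism, RNA splicing, mitochondrial ADP and ATP exchange and the assembly of splicing particles. LSM3 had 219, 140, 110 and 170 CPM in the untreated mice and 70.8, 104, 57.4, 74.3, 87.7 and 49.1 CPM in the maraviroc mice, with no overlap. SLC25A5 had 803, 310, 279 and 366 CPM against 230, 254, 134, 149, 202 and 245 CPM, also with no overlap. In 0.531% of the 2638 genes every maraviroc mouse lay below every untreated mouse. The log2 changes were −1.04 ± 0.35 for LSM3, −1.03 ± 0.35 for SLC25A5, −1.42 ± 0.43 for RANBP1, −1.37 ± 0.44 for DUT and −1.13 ± 0.39 for STRAP, each with an edgeR adjusted p of 0.996. Without the limit of 6000 genes they were smaller, at −0.38, −0.72, −0.79, −0.76 and −0.74 in the same order. The unadjusted edgeR p were then 0.167, 0.0137, 0.0259, 0.0430 and 0.00412. With each mouse left out in turn, SLC25A5 ran from −1.2 to −0.62 and DUT from −1.58 to −0.86. Over 23 alternatives RANBP1 ran from −2.36 to −0.45.

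**Figure D5:**
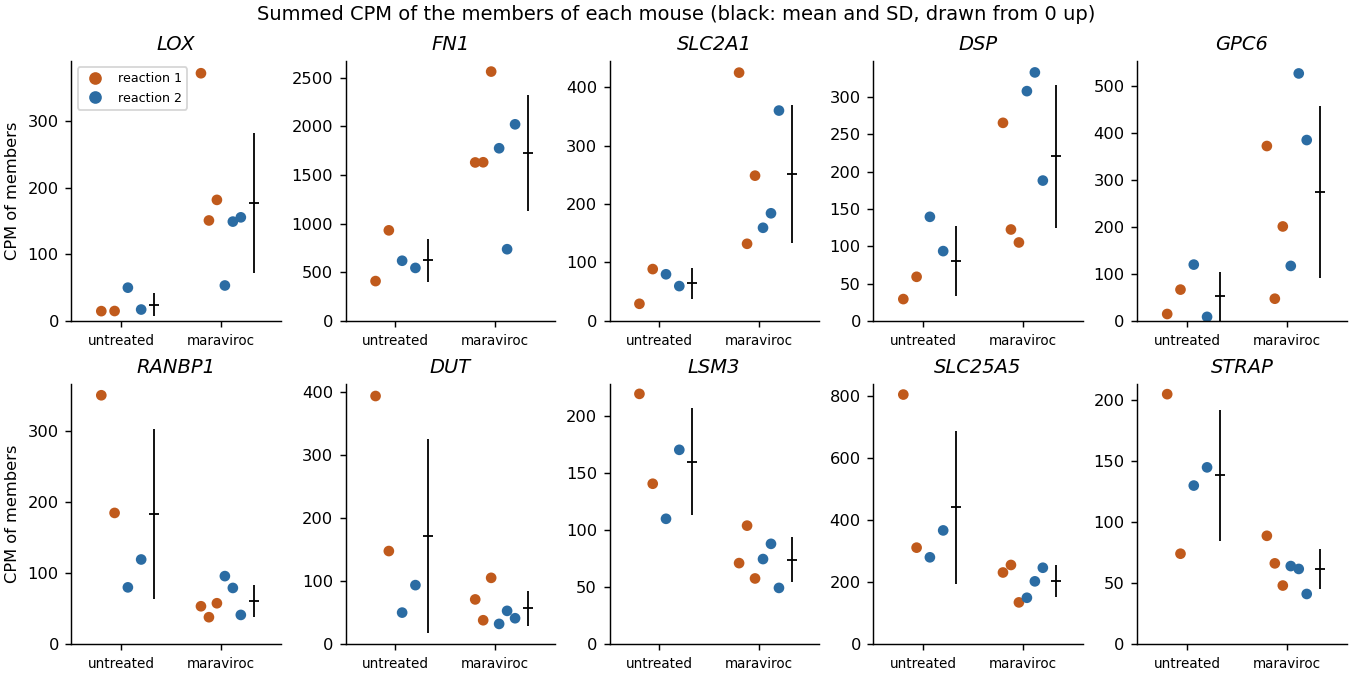
Summed CPM (y axis) of named genes in the carcinoma cells of each of the 4 untreated and 6 maraviroc mice with at least 5 carcinoma cells, by reaction, with the mean and SD of each group. With mice assigned by the leading hashtag, LOX and SLC2A1 lie higher in each maraviroc mouse than in each untreated mouse. LSM3 and SLC25A5 lie lower in each.

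None of the gene lists had a member that passed the adjustment in this fit. Of 20 hypoxia genes tested, 4 were higher in maraviroc mice at an unadjusted p under 0.05 (SLC2A1, VEGFA, EGLN3 and LOX) and none was lower, with a median log2 change of 0.39 against 0.01 over all genes tested. Over all 2638 genes, 2.5% were higher and 1.71% lower at that p, and the counts here and below stand beside those shares. Of 21 matrix and adhesion genes, 4 were higher, ITGA3 and LOX among them, with a median of 0.09. Of 12 mesenchymal genes, VIM and FN1 were higher, with a median of 0.52. All 12 interferon genes and all 9 MHC class I genes tested lay above an unadjusted p of 0.05, with medians of 0.22 and 0.05. Of 3 MHC class II genes, HLA-DRA was lower, with −1.54 ± 0.70. No replication gene passed the filter on low counts. Of the carcinoma markers, CST1 had a log2 change of −0.70 ± 0.30 with an unadjusted edgeR p of 0.0305, KRT19 of 0.03 ± 0.34 and TM4SF1 of 0.08 ± 0.38.

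The fit in the 3 mice with at least 10 carcinoma cells set untreated mouse 4 against maraviroc mice 2 and 3 of reaction 1. With 1 untreated mouse the fit has no spread between untreated mice, which are assumed to vary like the maraviroc mice, so treatment and that mouse cannot be told apart in the values below. It called 10 of 2893 genes (0.346%), all lower in the maraviroc mice, with 67 at an unadjusted p under 0.05 (2.32%, of which 0.83% higher and 1.49% lower). They were the mitosis genes CENPF, TOP2A and UBE2C, the MHC class II genes HLA-DRA, HLA-DRB1 and HLA-DPB1, the chemokines CCL4 and CCL5, the leukocyte antigen CD52 and the EGFR ligand EREG. HLA-DRA had 1403 CPM in the untreated mouse and 84.8 and 105 CPM in the maraviroc mice, and fell by 3.84 on the log2 scale (SE 0.88, edgeR, adjusted p = 0.0139). CD52 had 318 CPM against 18.8 and 9.56 CPM. The untreated mouse is the one with 15 leukocyte-rich cells among 18, and PTPRC stood at 288 CPM in it and at 28.3 and 19.1 CPM in the maraviroc mice. Leaving the leukocyte-rich cells out left no untreated mouse with 10 carcinoma cells. Untreated mouse 3 of reaction 1, with 9 carcinoma cells of which 1 was leukocyte-rich, had 73.0 CPM of HLA-DRA and 14.6 CPM of CCL5, near the maraviroc mice, and 467 CPM of TOP2A and 204 CPM of CENPF. In the fit over 10 mice none of these 10 genes was called, and DESeq2 on the same 3 mice called 1.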

How the data were processed

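The deposited files hold UMI counts per gene and barcode, made by the authors from Chromium Single Cell 3′ libraries with Cell Ranger 9.0.1 on GRCh38, for 2 capture reactions, with hashtag counts among the features. No other column of values was used. The members and gene lists were chosen with earlier results of these data known. UMIs were summed over the members of a reaction or mouse. CPM is per 1e+06 summed UMIs. Intervals are exact (Poisson or binomial, 95%). Genes by treatment were tested with edgeR 4.0.16 (TMM, filterByExpr, quasi-likelihood) in R 4.3.3. DESeq2 1.42.0 was an alternative. The design set 10 members per mouse, which 3 mice of reaction 1 met, so a fit with at least 5 was added after seeing the data. The edgeR fit over 10 mice, tested on simulated data, recovered 5.5%, 87% and 95.5% of 200 genes changed by 1, 2 and 3 on the log2 scale. Hashtags were also called with HTODemux (Seurat 5.3.0). Scrublet (scanpy 1.11.5) marked no barcode of reaction 1, where it is taken to have failed, and 4 members of reaction 2; no doublets were removed. The genes named are those of the rule, the 15 of highest ratio and 10 of highest level, the called genes or the 5 higher and 5 lower of smallest p, a fixed list by function, and the most abundant of each list. The single cells and the reaction differences were chosen after their values were seen. Whether mice of a group differ in the donor of their human cells is not given in the sources used here. Some results are not reported here.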

Additional observations from a re-analysis of the deposited data

Results flagged for a closer look

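Of the 52 groups of mice checked, 7 had a highest mouse far from the others, where chance flags about 1 in 20 if values are normally distributed. A group was a gene in 1 treatment, in the 10 mice with at least 5 carcinoma cells, or the share of carcinoma cells in 1 treatment. All 7 were genes, and some of the genes checked had been picked for their treatment difference in these data. Among the untreated mice LOX stood at 49.83 CPM in mouse 2 of reaction 2 with the next at 17.0 CPM, and SLC25A5 at 803.1 CPM in mouse 3 of reaction 1 with the next at 365.6 CPM. Untreated mouse 4 of reaction 1, the mouse whose carcinoma cells were mostly leukocyte-rich, had 288 CPM of PTPRC with the next at 17.0 CPM, 3138 CPM of B2M with the next at 2123 CPM, and 1218 CPM of NDRG1 with the next at 399.6 CPM. Among the maraviroc mice VIM stood at 20581 CPM in mouse 2 of reaction 1 with the next at 9982 CPM. PTPRC stood at 96.43 CPM in mouse 3 of reaction 2 with the next at 28.26 CPM. The part of leukocyte RNA in these values was not tested.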

How the results depend on the processing

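Depth and cell number limit these results, with 105 assigned carcinoma cells in 14 mice. The share per mouse missed p = 0.05 under every alternative run (exact permutation over mice). The difference, maraviroc minus untreated in percentage points, turned negative with HTODemux singlets (−0.06765), a mitochondrial share under 20% (−0.01415), at least 10 keratin UMIs (−0.0006265) and in reaction 2 by itself (−0.06875). It was 0.2044 with a top hashtag of at least 80% (p = 0.1579, n = 7 each), 0.1595 with leukocyte-poor cells, and without the upper gene limit 0.2309, or 0.3196 (p = 0.1503) when leukocyte UMIs were also held to at most 2, all by exact permutation. It ran from −0.0584 to 0.1637 when each mouse was left out in turn. The count of genes called in mice with at least 10 members, which was 10, was 1 with DESeq2, 1 with all genes with a count, 0 in mice with at least 5 members, 22 with HTODemux singlets, 0 without the upper gene limit and 0 when leukocyte UMIs were also held to at most 2. That fit could not be made with at least 20 members per mouse, a top hashtag of 80%, leukocyte-poor cells, at least 10 keratin UMIs, reaction 2 by itself or any mouse left out. Without the upper limit CCL5, CD52 and EREG changed sign to 0.05874, 0.1744 and 0.002289 on the log2 scale, and EREG to 0.343 when leukocyte UMIs were also limited.

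In mice with at least 5 members, where no gene was called, the count was 2 with DESeq2, 36 with all genes with a count, 4 with a top hashtag of 80% and 19 in reaction 1 by itself, settings that left 1 untreated and 3 maraviroc mice and 2 and 3, and 0 to 2 with each mouse left out in turn. It was 2 without untreated mouse 2 of reaction 2 and 1 without maraviroc mouse 2 or 3 of reaction 2. Removing scrublet doublets left mouse 3 with 4 members and so gave the same fit as leaving it out, with 1 gene called. GPC6 changed sign with HTODemux singlets, to −0.517. The fit with no replicate block, that is without the reaction as a block, called 0 of 2265 genes in these mice. The mice with at least 10 members were all in reaction 1, where the fit had no block to remove. The CST1 level moved to 3327 and 2164 CPM in leukocyte-poor cells. The cause of these shifts was not tested.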
